A study of Mus musculus with 4 samples.

Results

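The loci of the 4 Ikaros family transcription factor genes Ikzf1 (Ikaros), Ikzf2 (Helios), Ikzf3 (Aiolos) and Ikzf4 (Eos) were examined for chromatin accessibility in regulatory T cells. Accessibility was measured by ATAC-seq, in which a transposase inserts sequencing adapters into open chromatin, so that the reads in a region reflect how open it was. The members are the accessible regions that overlap 1 of 4 windows of the mm9 genome build: chr11:11560000-11700000 for Ikzf1, chr1:69560000-69760000 for Ikzf2, chr11:98310000-98430000 for Ikzf3 and chr10:128050000-128100000 for Ikzf4. They number 157 of the 84476 regions in the files, with 45 in the window of Ikzf1, 79 in that of Ikzf2, 23 in that of Ikzf3 and 10 in that of Ikzf4. The cells came from the spleen and lymph nodes of male mice of the NOD strain, which becomes diabetic through autoimmunity, aged 8 to 10 weeks. They were sorted as DAPI-negative, CD4+ and TCRβ+ from the upper 50% of CD25-high staining, 50000 for a library, and the labels describe both a single and a double sort. The 2 groups were Flicr WT (2 libraries), with an intact gene for the long noncoding RNA Flicr, and Flicr KO (2 libraries), in which it was knocked out. Both groups share the NOD background. The series title names Flicr as a modulator of Foxp3, the master regulator of these cells, so the comparison shows these loci with and without it. How the knockout was made is not given in the sources used here. The labels do not tie replicates to separate mice, so a p-value here weighs a difference only against the variation among these samples, which may be technical.

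Ikaros family proteins are zinc finger transcription factors. Fingers near one end bind DNA and fingers near the other end let the proteins pair with themselves or with each other, and the pairs recruit corepressor and chromatin remodelling complexes. Ikaros is needed for lymphocyte development. Helios is carried by most regulatory T cells of the thymus and is known for keeping their identity stable under inflammation. Aiolos is best known in B cells and in T cells that silence Il2, and Eos is known as a partner through which Foxp3 silences genes.

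The RefSeq promoter table used here, of GRCm38.p6, matched 1 of the 4 genes, Ikzf1, with 2 starts. Ikzf2, Ikzf3 and Ikzf4 had no match. The 250 bases before each Ikzf1 start are shown because these starts differ sharply in base composition, with every CG dinucleotide in capitals. The first lies at chr11:11685675-11685924 and the second at chr11:11689927-11690176, both on the plus strand of GRCm38.p6, and these positions cannot be set beside the mm9 regions.
Ikzf1 first start: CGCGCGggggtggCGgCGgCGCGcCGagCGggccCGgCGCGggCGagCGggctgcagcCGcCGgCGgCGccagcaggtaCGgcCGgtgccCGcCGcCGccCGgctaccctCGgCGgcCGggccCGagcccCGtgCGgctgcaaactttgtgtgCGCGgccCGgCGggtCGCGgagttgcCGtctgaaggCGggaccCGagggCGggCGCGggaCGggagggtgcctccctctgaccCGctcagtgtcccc
Ikzf1 second start: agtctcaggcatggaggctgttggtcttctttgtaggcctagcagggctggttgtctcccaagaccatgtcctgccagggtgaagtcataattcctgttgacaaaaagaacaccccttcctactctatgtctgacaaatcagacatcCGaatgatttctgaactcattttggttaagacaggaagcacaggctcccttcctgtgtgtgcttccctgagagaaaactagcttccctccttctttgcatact
The first sequence holds 44 CG dinucleotides and is 82.0% G or C, and the second holds 1 and is 47.6% G or C. Over 32851 promoters of the table the median was 6 CG dinucleotides and 52.4% G or C, and 0.539% held 44 or more. Neither sequence holds, on either strand, the letters TGGGAA (an Ikaros core motif, in 21.6% of all promoters over the same length), CCGGAA (ETS, 12.0%) or TGTGGT (RUNX, 14%). These motifs were searched separately, and no match says only that the letters are not in these windows.

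Library totals ranged from 19514512 to 41809276 reads, and between 24.2% (Flicr WT replicate 1) and 35.1% (Flicr KO replicate 1) of them fell in the regions. Values are in RPKM, reads per kilobase of region and per 1000000 library reads. A larger share of reads in regions raises the RPKM of most regions together, so each comparison was also made relative to the median RPKM of its library, which was 1.92 and 2.47 in Flicr WT replicates 1 and 2 and 2.54 and 2.46 in Flicr KO replicates 1 and 2. Gene names are not paired with the regions in the files, and gene models of mm9 were not used here. The windows were therefore taken as given, and the labelled cell type was not checked against its marker genes. In the GRCm38.p6 gene table the nearest protein-coding genes are 4930512M02Rik and Fignl1 beside Ikzf1, Erbb4 and Spag16 beside Ikzf2, Grb7 and Zpbp2 beside Ikzf3, and Rps26 and Suox beside Ikzf4. Regions near a window's edge may belong to those genes.

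The Helios and Ikaros windows were densely filled with regions. The Helios window held 39.5 regions per 100 kb and the Ikaros window 32.1, with 36.7% and 35.4% of their bases inside regions. The windows of Aiolos and Eos held 19.2 and 20.0 regions per 100 kb, with 9.99% and 9.07% of their bases covered. The genome was cut into consecutive tiles as long as each window, and only tiles with at least 1 region were counted. As many regions as in the Helios window were found in 0 of 8102 tiles, whose median was 8. For Ikaros the count was 27 of 10636 tiles (0.254%, median 6), for Aiolos 385 of 11944 (3.22%, median 5) and for Eos 1521 of 22240 (6.84%, median 3). Regions were assigned to a tile by their midpoint, and to a window by any overlap. By midpoint the Eos window held 9 regions, a number that a further 476 tiles held, so 6.84% understates its share. The tiles are not centred on genes as the windows are, and these shares are descriptions without a test.

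**Figure D1:**
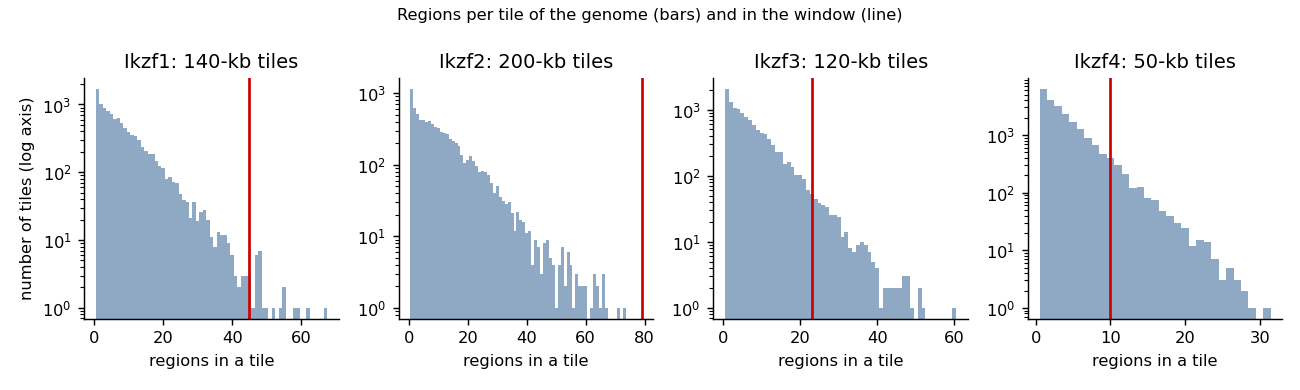
Number of regions in each consecutive tile of the genome (x axis) against the number of tiles (log axis), with tiles as long as the window of each gene. The red line marks the regions of the window, which for Ikzf2 is 79 and lies beyond all 8102 tiles.

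Neighbouring regions of the Ikaros and Helios windows were separated by a median of 726 and 765.5 bases, those of Aiolos by 2727 and those of Eos by 1991, against 5401 over all regions. Wide regions were common in both dense windows. Regions of 2000 bp or more made up 17.8% of the Ikaros window (8 of 45) and 11.4% of the Helios window (9 of 79), against 3.39% of all regions, and the windows of Aiolos and Eos held 0. These wide regions took 54.7% of the reads of the Ikaros window and 46.3% of those of the Helios window. The widest were chr11:11624423-11629738 in the Ikaros window (5316 bp) and chr1:69730687-69735968 in the Helios window (5282 bp).

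The densest window, that of Helios, had the lowest median level of the 4, and the next densest, that of Ikaros, the highest. The median of the regions' mean RPKM was 2.22 in the Ikaros window, 1.51 in the Helios window, 2.06 in the Aiolos window and 2.03 in the Eos window, against 2.22 over all regions. Summed over all covered bases, which weights regions by length, the Eos window was at 4.45 ± 0.162 RPKM in WT and 4.6 ± 0.151 in KO, and the Ikaros window at 3.49 ± 0.316 and 4.02 ± 0.0244. The Helios window was at 2.69 ± 0.603 in WT and 2.72 ± 0.0308 in KO, and the Aiolos window at 2.36 ± 0.121 and 2.50 ± 0.511 (SD, n = 2 each). Eos was above Ikaros, and Ikaros above Helios and Aiolos, in each of the 4 libraries. Helios and Aiolos did not differ beyond their spread, with Helios lower in Flicr WT replicate 1 (2.259 against 2.276) and Flicr KO replicate 2 (2.70 against 2.86) and higher in Flicr WT replicate 2 (3.11 against 2.45) and Flicr KO replicate 1 (2.74 against 2.14).

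**Figure D2:**
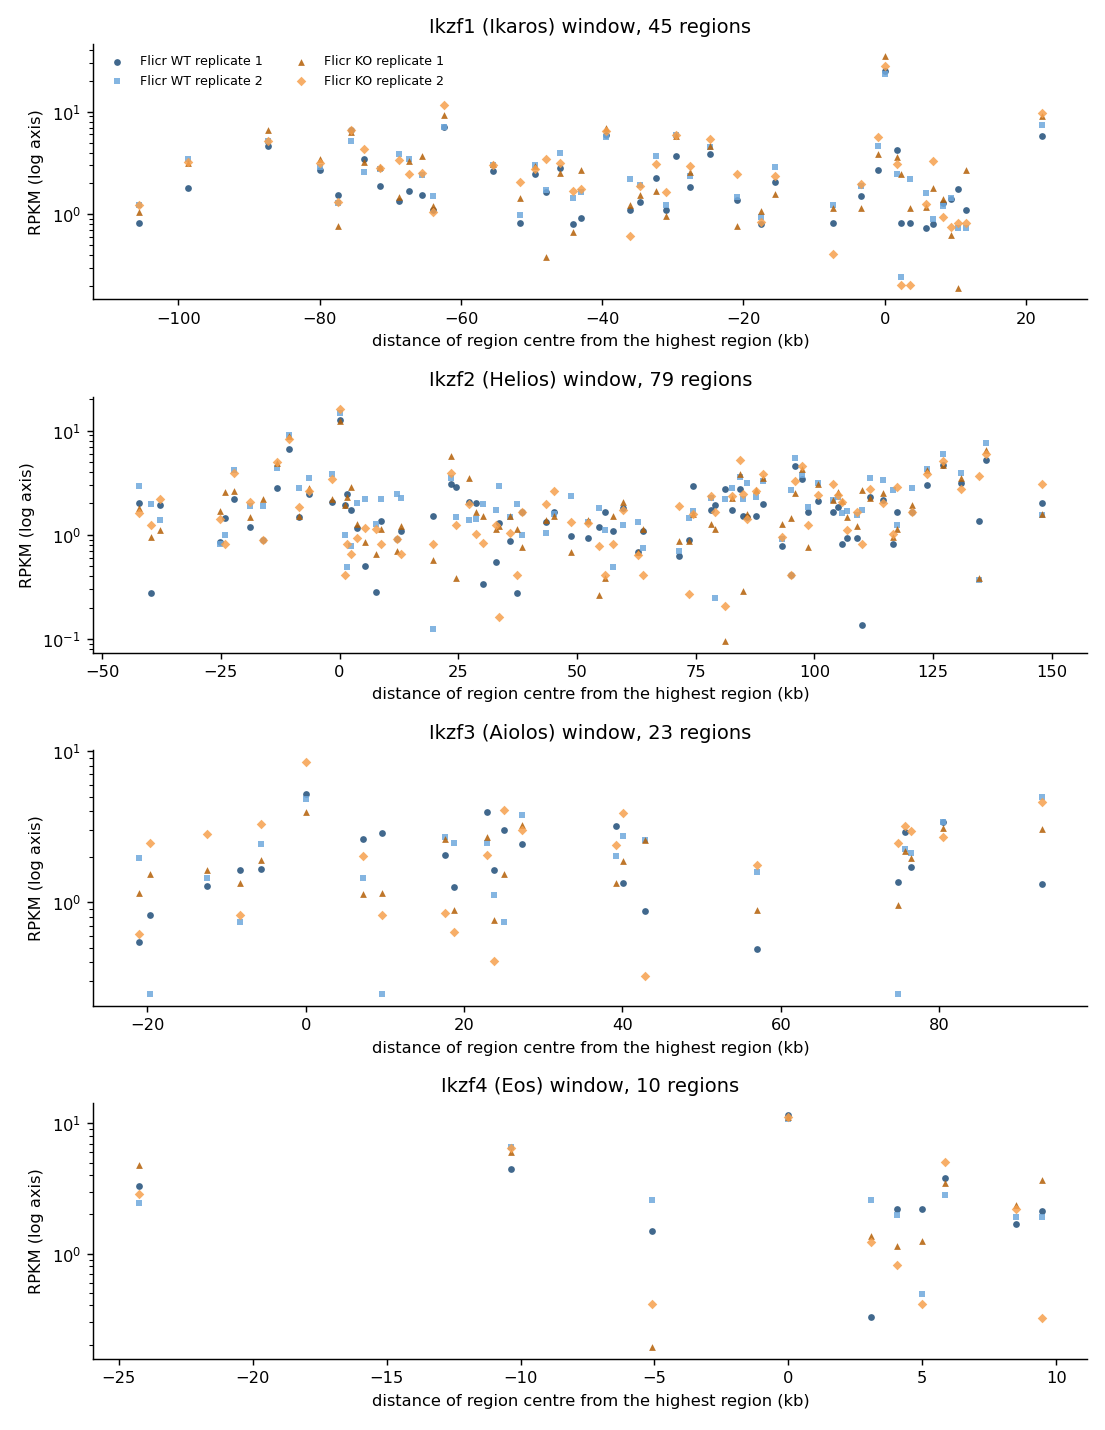
RPKM of each region (log axis) in each of the 4 libraries against the distance of its centre from the highest region of its window, in kb. A few regions stand above a broad floor near 1 to 3 RPKM in each window, and the Helios region 81.266 kb from the highest has both KO libraries far below both WT libraries.

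No region of the 4 windows differed between KO and WT by the test. Of the 157 members, 143 had a mean RPKM of at least 1.01, the 5th percentile of all regions, and were tested: 41 of 45 for Ikaros, 70 of 79 for Helios, 22 of 23 for Aiolos and 10 of 10 for Eos. With limma on log2(RPKM + 1), 0 were higher and 0 lower at a Benjamini-Hochberg adjusted p under 0.05 over all 80254 regions tested, of which 0.0187% were called higher and 0% lower. The smallest adjusted p of a member was 0.378. Relative to the library medians limma called 0 members and 0% of all regions in either direction, with a smallest adjusted p of 0.607 among members. At unadjusted p under 0.05 there were 1 member higher and 2 lower as deposited (8.22% and 0.842% of all regions) and 0 higher and 5 lower after centring (4.97% and 2.43%). The 15 regions called higher over the whole table became 158 and 6440 without Flicr WT replicates 1 and 2 and 0 and 1 without Flicr KO replicates 1 and 2, with 0 members among them. Voom, the other tool run, called 0 members as well, both scaled to all library reads and scaled to the reads in regions. The added 1 RPKM makes these folds smaller than the true ones where RPKM is low.

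The medians of the 4 windows lay below that of all regions on both scales. As deposited, the median over all regions was 0.21 on the log2 scale, and the window medians were 0.10 for Ikaros, 0.04 for Helios, 0.03 for Aiolos and 0.04 for Eos. A fold change above 0 was found in 29 of 41 tested Ikaros regions (70.7%), 38 of 70 Helios regions (54.3%), 12 of 22 Aiolos regions (54.5%) and 6 of 10 Eos regions (60.0%), against 71% of all regions. Relative to the library medians the median of all regions was 0.04, and the windows were at −0.08 for Ikaros, −0.13 for Helios, −0.14 for Aiolos and −0.13 for Eos. A fold change above 0 was then found in 18 of 41 Ikaros regions, 22 of 70 Helios regions, 10 of 22 Aiolos regions and 4 of 10 Eos regions, against 54.6% of all regions. It was below 0 in the remaining 23, 48, 12 and 6, against 45.4%. The sign of a window's median thus depended on the scaling, and regions of a window are not independent, so these counts carry no test.

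**Figure D3:**
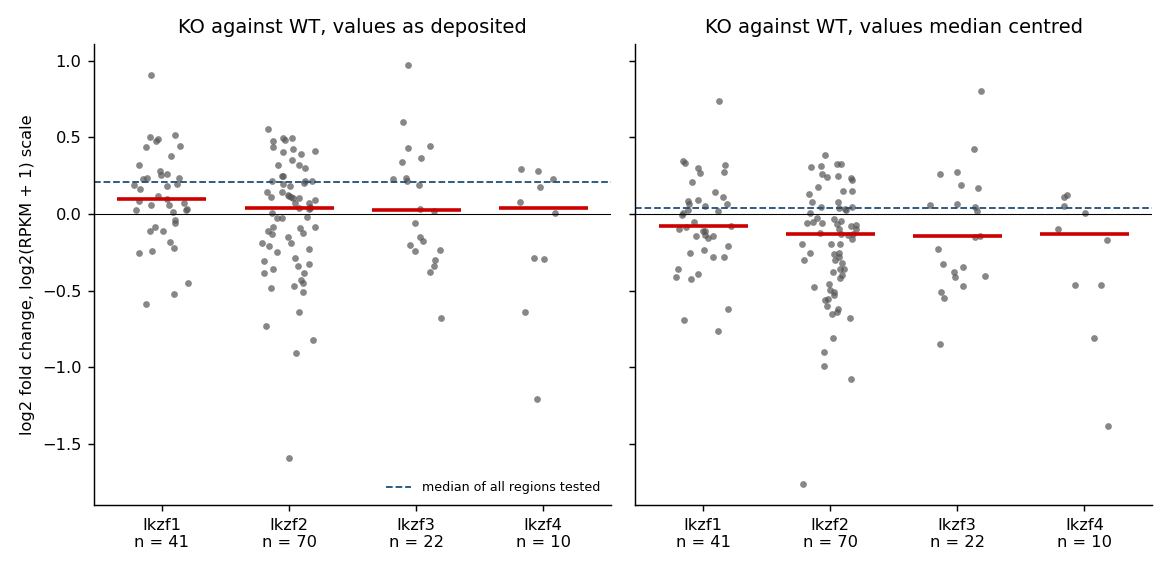
Log2 fold change of KO against WT on the log2(RPKM + 1) scale for each tested region of the 4 windows, as deposited (left) and after centring each library on its median (right). Red bars are the window medians and the dashed line is the median of all regions tested, 0.21 on the left and 0.04 on the right, above the 4 window medians in both panels.

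The Ikaros window held more of the library's reads in both KO libraries than in either WT library, and a smaller share of the reads in regions. It had 161 and 183 reads per 1000000 library reads (RPM) in Flicr WT replicates 1 and 2 and 198 and 199.7 in Flicr KO replicates 1 and 2. The groups did not overlap, with means of 172 ± 15.6 in WT and 199 ± 1.21 in KO (SD, n = 2 each) and a ratio of 1.15. With 2 libraries on each side a two-sided exact permutation test cannot go below p = 0.333, the value found here, or 1.0 after Benjamini-Hochberg adjustment over the 4 windows. Its share of all reads in regions was 0.0665% (Wilson 95% interval 0.0647 to 0.0685) and 0.0590% (0.0575 to 0.0605) in WT, and 0.0565% (0.0553 to 0.0577) and 0.0587% (0.0569 to 0.0606) in KO. Flicr WT replicate 1 stood apart here, and the interval of the other WT library overlapped those of both KO libraries (exact permutation p = 0.333, adjusted 0.444). These intervals cover counting error only. As a multiple of the library median, the mean level of the Ikaros window was 1.70 and 1.503 in WT and 1.58 and 1.64 in KO, so that the groups overlapped. The intervals are too narrow if both mates of a pair were counted, and 78.8% to 85.5% of the read numbers in a library were even.

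The most open region of the family was chr11:11666190-11666795 in the Ikaros window, which ranked 904 of 84476 by mean RPKM. It was at 24.9 and 23.2 RPKM in Flicr WT replicates 1 and 2 and at 35.3 and 28.1 RPKM in Flicr KO replicates 1 and 2. KO was above WT as deposited. Relative to the library medians the groups overlapped, at 13.0 and 9.38 times the median in WT and 13.9 and 11.4 times in KO. The log2 fold change was 0.38 (SE 0.23, limma adjusted p 0.626) as deposited and 0.21 (SE 0.16) after centring. The next highest, chr11:11603694-11604529, was at 7.09 RPKM in both WT libraries and at 9.28 and 11.5 in KO (0.49, SE 0.27), and relative to the median its groups overlapped too. The third, chr11:11688520-11689072, was at 5.76 and 7.49 RPKM in WT and 9.01 and 9.65 in KO (0.45, SE 0.27). It was one of 7 tested Ikaros regions in which, relative to the median, KO exceeded WT in both libraries of each, where 23.5% of all regions did so, while in 6 both lay below (13.8% of all regions).

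The largest fitted rise of the Ikaros window was at chr11:11673114-11673456, with 0.800 and 0.902 RPKM in WT and 1.82 and 3.30 RPKM in KO. It rested on 8 and 10 reads in WT and 26 and 22 in KO, and the groups did not overlap before or after centring. The log2 fold change was 0.91 (SE 0.43, limma p 0.0398, adjusted 0.537) as deposited and 0.74 (SE 0.39, 95% CI −0.11 to 1.59) after centring. A nearby region went the other way without passing the test. This was chr11:11675574-11676256, with 1.40 and 1.45 RPKM in WT and 0.631 and 0.751 in KO (−0.69 after centring, SE 0.47). The lowest fold change, −0.76 after centring (SE 0.52), was at chr11:11669989-11670239, where the groups overlapped on 6 and 18 reads in WT and 12 and 1 in KO. The 5316-bp region was at 5.91 and 5.63 RPKM in WT and 6.91 and 6.52 in KO, with KO above WT as deposited (0.19, SE 0.28) and overlapping groups relative to the median (0.02 after centring, SE 0.22). The other 38 regions of the window had mean RPKM from 0.883 to 6.18, and the centred fold changes of the tested ones ran from −0.62 to 0.35.

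The Helios window took a smaller share of the reads in regions in both KO libraries. Its share was 0.0689% (Wilson 95% interval 0.0670 to 0.0708) and 0.0740% (0.0723 to 0.0757) in Flicr WT replicates 1 and 2, and 0.0578% (0.0566 to 0.0591) and 0.0586% (0.0568 to 0.0605) in Flicr KO replicates 1 and 2. The KO libraries lay close together and below both WT libraries, and their counting intervals did not reach the WT ones. The means were 0.0714% ± 0.00361 in WT and 0.0582% ± 0.000582 in KO (SD, n = 2 each), a difference of −18.5%, with an exact permutation p of 0.333 (adjusted 0.444). The log2 ratio was −0.30, and it lay between −0.35 and −0.24 over the alternatives, each library left out included. The mean share was lower in KO in the other windows too, by −18.2% for Eos, −15.9% for Aiolos and −8.21% for Ikaros. Over the same alternatives their log2 ratios lay between −0.42 and −0.14 for Eos, −0.50 and −0.037 for Aiolos, and −0.21 and −0.034 for Ikaros. On the RPM scale the Helios groups overlapped, with 167 and 230.1 in WT and 203 and 199 in KO. The Helios ratio turned with Flicr WT replicate 1: log2 0.02 with all libraries and −0.19 without it. That library also had the lowest share of its reads in regions, 24.2% against 31.1% to 35.1%. The part of that share in the result was not tested. Relative to the library medians the mean level of the Helios window was 1.18 and 1.26 in WT and 1.08 and 1.096 in KO, with KO below WT.

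**Figure D4:**
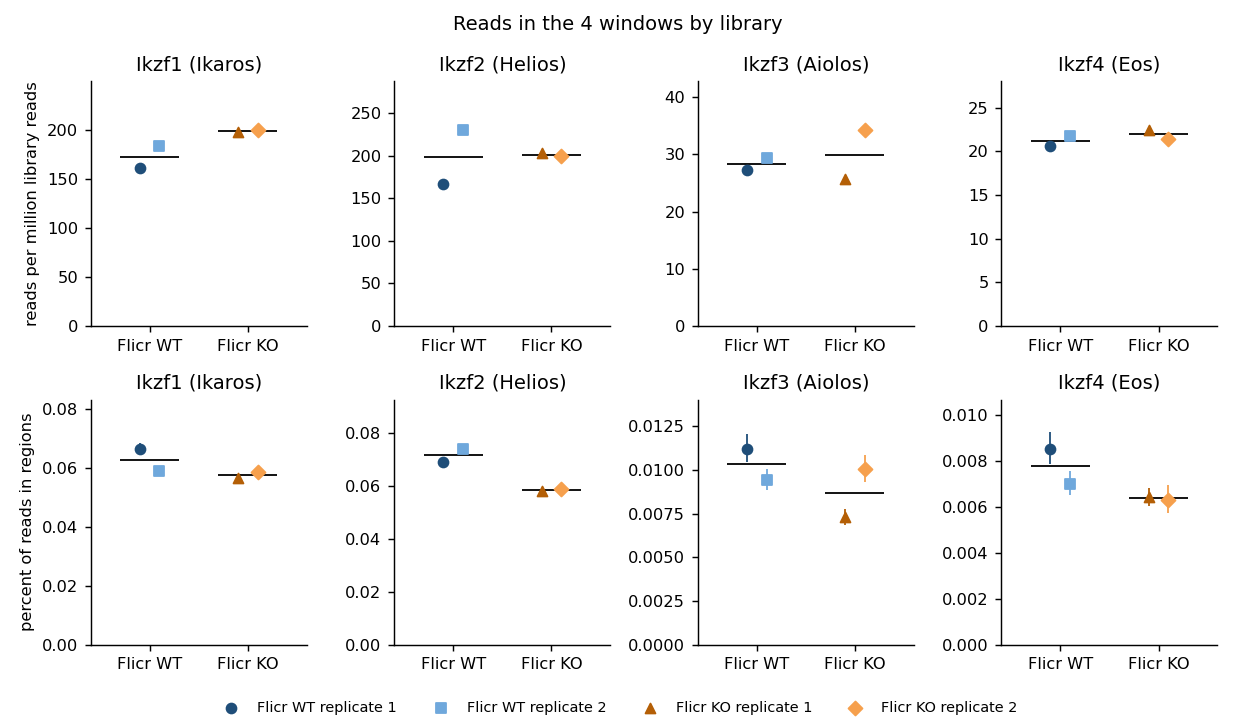
RPM of each window (top) and as percent of the reads in regions with Wilson 95% intervals (bottom), by library, with black bars at the means of the 2 libraries of a genotype. In the bottom row both KO libraries lie below both WT libraries for Ikzf1, Ikzf2 and Ikzf4 and overlap them for Ikzf3.

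One Helios region had a single read, the lowest number in the files, in each KO library. This region, chr1:69683605-69683855, was at 2.74 and 2.22 RPKM in Flicr WT replicates 1 and 2, on 20 and 18 reads, and at 0.0957 and 0.205 RPKM in Flicr KO replicates 1 and 2, on 1 read each. Pooled over libraries, the rate of reads in KO was 0.0529 of that in WT, with an exact 95% interval for counting error only of 0.00618 to 0.205. The region was picked for its few KO reads, and the interval is too narrow if both mates of a pair were counted. No value in the files lies below 1 read, so 0 and 1 read may not be distinguished. It stood at 1.43 and 0.900 times the library median in WT, near the middle of all regions. The limma log2 fold change was −1.59 (SE 0.55, p 0.00562, adjusted 0.378) and −1.77 after centring (SE 0.48, 95% CI −2.82 to −0.71, adjusted p 0.607), the lowest of the 143 tested members in both. Over its alternatives the adjusted p ran from 0.139 to 0.974, so it did not pass in any of them. Regions on either side did not share the pattern: chr1:69681321-69681571 was at 1.92 and 0.247 RPKM in WT and 1.15 and 1.64 in KO, and chr1:69684472-69685809 at 1.74 and 2.82 in WT and 2.25 and 2.38 in KO.

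Other low values in KO in the Helios window showed a smaller difference. The region chr1:69698164-69698604 was at 4.59 and 5.47 RPKM in WT, on 59 and 78 reads, and at 2.50 and 3.26 RPKM in KO, on 46 and 28 reads. Both KO libraries lay below both WT libraries, with −0.64 (SE 0.32, limma adjusted p 0.561) as deposited and −0.81 (SE 0.26, adjusted p 0.612) after centring. At chr1:69635923-69636241 the values were 1.29 and 2.91 RPKM in WT, on 12 and 30 reads, and 1.2 and 0.161 in KO, on 16 reads and 1 read. Thus 1 KO library lay just under WT, and the other, at the lowest read number in the files, far under it. Relative to the median, 22 of 70 tested Helios regions had both KO libraries below both WT libraries (13.8% of all regions) and 8 had both above (23.5%). As deposited the counts were 10 below (7.81% of all regions) and 12 above (33.2%). The 71 Helios regions outside the rule for named regions, among them the 2 neighbours of chr1:69683605-69683855, had mean RPKM from 0.756 to 5.14, and the centred fold changes of the tested ones ran from −0.99 to 0.33.

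The highest Helios regions differed little between the genotypes. The highest, chr1:69602118-69602809, was at 12.6 and 14.7 RPKM in WT and 12.3 and 16.2 in KO, with overlapping groups and a log2 fold change of 0.05 (SE 0.25), or −0.12 after centring (95% CI −0.50 to 0.25). The 2791-bp region chr1:69590449-69593239 was at 6.71 and 9.0 RPKM in WT and 8.93 and 8.23 in KO (0.12, SE 0.27). Near the other end of the window, chr1:69737862-69739459 was at 5.27 and 7.63 RPKM in WT and 6.49 and 6.0 in KO (−0.02, SE 0.29). The 5282-bp region was at 3.15 and 3.89 RPKM in WT and 3.53 and 2.76 in KO (−0.13, SE 0.34). Relative to the library medians both KO libraries lay below both WT libraries in these last 2 regions, with log2 fold changes of −0.19 (SE 0.21) and −0.30 (SE 0.27, 95% CI −0.89 to 0.30). The largest fitted rise, at chr1:69712290-69712540 (0.38 after centring, SE 0.52), had 1 and 14 reads in WT and 28 and 4 in KO, so the replicates differed more than the genotypes.

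The Aiolos window had the regions that differed most between replicates. It had 27.2 and 29.3 RPM in WT and 25.6 and 34.2 in KO, so that the KO libraries lay on both sides of WT (exact permutation p = 1.0). Its share of the reads in regions was 0.0112% (Wilson 95% interval 0.0105 to 0.0120) and 0.00942% (0.00883 to 0.0100) in WT and 0.00730% (0.00688 to 0.00775) and 0.0101% (0.00933 to 0.0109) in KO, overlapping as well (exact permutation p = 0.667). The log2 ratio of RPM was 0.08 with all libraries and −0.14 without Flicr KO replicate 2. The highest region, chr11:98331147-98332017, had 133 and 135 reads in WT and 144 in each KO library, which gave 5.23 and 4.79 RPKM in WT and 3.96 and 8.48 in KO. The KO replicates lay on either side of both WT replicates (0.19, SE 0.31).

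Most other named Aiolos regions rested on few reads. The widest, chr11:98411268-98412919, was at 3.40 RPKM in both WT libraries and 3.11 and 2.70 in KO, below WT before and after centring (−0.17, SE 0.34, and −0.34, SE 0.28). The largest fitted rise was at chr11:98311862-98312112, with 6 and 2 reads in WT and 16 and 12 in KO (0.97, SE 0.51, limma adjusted p 0.571), near the window's edge. The lowest fold change was at chr11:98350126-98350450, with 1.27 and 2.48 RPKM in WT and 0.886 and 0.633 in KO (−0.85 after centring, SE 0.42). Its neighbour chr11:98348868-98349471 was at 2.04 and 2.71 RPKM in WT and 2.62 and 0.850 in KO, low in 1 KO library. Replicates also disagreed at chr11:98424413-98424725, with 1.32 and 4.94 RPKM in WT and 3.07 and 4.6 in KO, and at chr11:98406255-98406505, with 1.37 and 0.247 in WT and 0.957 and 2.46 in KO. Relative to the median both KO libraries lay below both WT libraries in 4 of 22 regions (13.8% of all regions) and above in 1 (23.5%). The mean level of the window was 1.19 and 0.991 times the library median in WT and 0.842 and 1.16 times in KO, and overlapped.

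The largest part of the Eos window's reads lay in 1 region, which had similar RPKM in the genotypes. The region chr10:128073665-128074631 held 49.9% of the window's reads and was at 11.6 and 10.8 RPKM in Flicr WT replicates 1 and 2 and at 11.2 RPKM in both Flicr KO replicates. The means were 11.2 ± 0.602 in WT and 11.2 ± 0.0386 in KO (SD, n = 2 each), with a log2 fold change of 0.00 (SE 0.25) as deposited and −0.17 (95% CI −0.56 to 0.23) after centring. The whole window had 20.7 and 21.8 RPM in WT and 22.4 and 21.4 in KO, overlapping (exact permutation p = 0.667). As a share of reads in regions it was at 0.00852% (Wilson 95% interval 0.00787 to 0.00923) and 0.00699% (0.0065 to 0.00753) in WT and 0.0064% (0.0060 to 0.00682) and 0.0063% (0.00572 to 0.00693) in KO. KO lay below WT on this scale, but the intervals of the second WT library overlapped those of both KO libraries (exact permutation p = 0.333, adjusted 0.444). Set against the library medians, the mean level of the Eos window was 2.26 and 1.8502 in WT and 1.854 and 1.83 in KO, and the groups overlapped.

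**Figure D5:**
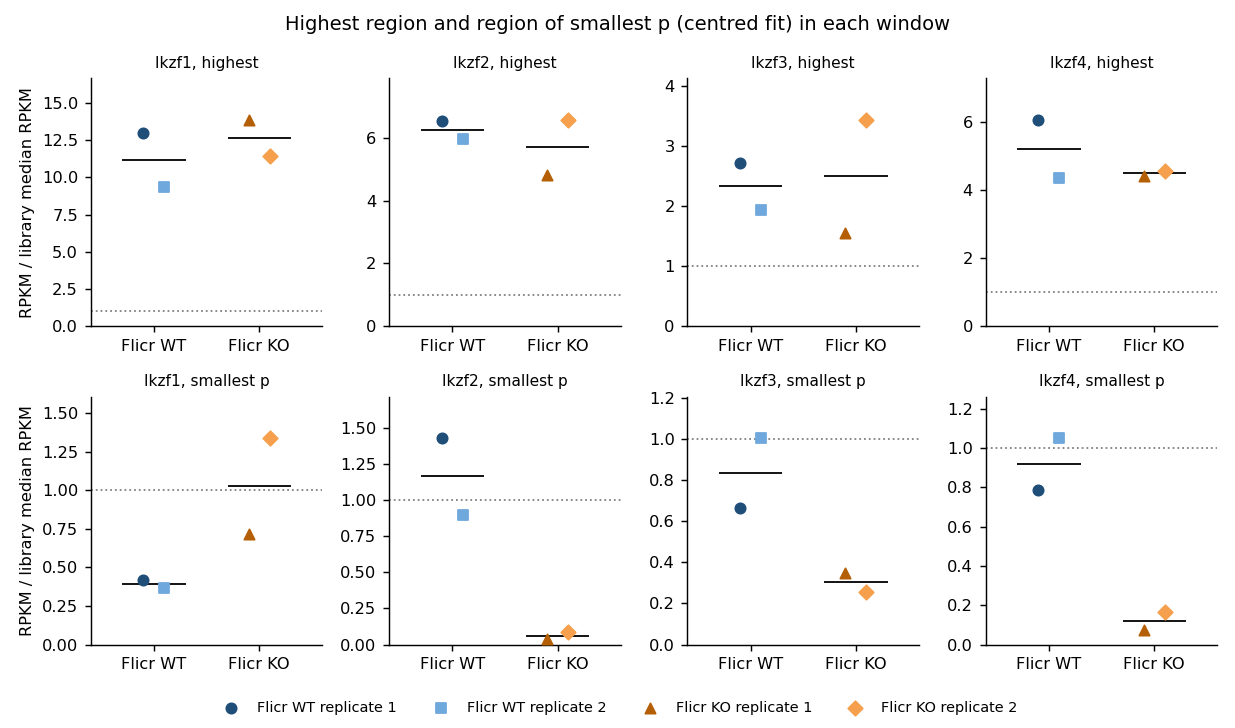
RPKM divided by the library's median RPKM for the highest region of each window (top) and the region with the smallest p in the centred fit (bottom), by library, with black bars at the group means and a dotted line at 1. In the Helios and Eos regions of the bottom row both WT libraries lie between 0.786 and 1.43 and both KO libraries at or below 0.167.

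Close to that Eos region lay a short one with low values in KO. This was chr10:128068923-128069173, at 1.51 and 2.59 RPKM in WT, on 11 and 21 reads, and at 0.191 and 0.410 RPKM in KO, on 2 reads each. Pooled, the rate in KO was 0.126 of that in WT (exact 95% interval for counting error only, 0.0323 to 0.354). This region too was picked for its few KO reads, and the interval is too narrow if both mates of a pair were counted. The log2 fold change was −1.21 (SE 0.56, limma p 0.0365, adjusted 0.532) and −1.38 after centring (SE 0.49, adjusted p 0.621). At chr10:128078074-128078324 both KO libraries were also below both WT libraries, at 1.15 and 0.820 RPKM against 2.19 and 1.97 (−0.64, SE 0.43). The remaining named regions overlapped: chr10:128063409-128064148 was at 4.44 and 6.64 RPKM in WT and 6.08 and 6.52 in KO (0.18, SE 0.29), chr10:128079800-128080186 at 3.81 and 2.80 in WT and 3.47 and 5.04 in KO, and chr10:128049762-128050012, which crosses the window's edge, at 3.28 and 2.47 in WT and 4.78 and 2.87 in KO.

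In the Ikaros, Helios and Aiolos windows replicates of a genotype were about as far from each other as from the other genotype. After centring, the 79 Helios regions had a median absolute log2 difference of 0.28 for the WT pair, 0.32 for the KO pair and 0.28 to 0.41 across genotypes. Over the 45 Ikaros regions it was 0.20 between the WT libraries, 0.29 between the KO libraries and 0.20 to 0.29 across genotypes. For Aiolos it was larger, at 0.57 and 0.49 within genotypes and 0.29 to 0.55 across. For the 10 Eos regions it was smaller within genotypes, at 0.35 and 0.24, than across, at 0.36 to 0.53. Over all regions the values were 0.32 within each genotype and 0.32 to 0.36 across. These values share libraries and are descriptions. The median number of reads per region ran from 40 to 64 over the libraries in the Ikaros window, from 16 to 39 in the Helios window, from 20 to 31 in the Aiolos window and from 12 to 49.5 in the Eos window.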

How the data were processed

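Each library came as the same list of 84476 regions with 1 RPKM value per region. The authors deposited these values as RPKM, per the file headers. Tools named in the submitters' processing notes, with no role, are DiffBind, HOMER 4.6, SAMtools, Picard 1.130 and Bowtie2, and the build is mm9. The calling of regions, the treatment of duplicates and any shift of reads for the transposase are not given in the sources used here. RPKM times region length less 1 base was a whole multiple of 1 step in 100% of values (tolerance 0.001 reads), so read numbers and library totals were worked out by taking the smallest step as 1 read.

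KO was compared with WT by limma 3.58.1 (trend and robust options) in R 4.3.3 on log2(RPKM + 1), fitted on 80254 regions after 4222 with a mean RPKM under 1.01 were left out, with Benjamini-Hochberg adjustment and a threshold of 0.05. The centred fit first subtracted each library's median log2 value. Reads of a window were tested by exact permutation over libraries (scipy 1.17.1, Python 3.11.15). Named in each window were the 3 highest regions, the widest, the 3 with the smallest p in each fit, and the largest centred rise and fall. Alternatives covered scaling, pseudocount, filter, test, window edges, each library left out and the replicate number as a block. Members, windows and lists were chosen with earlier results of these data known, and the lists of partner and marker genes could not be placed on mm9.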

Additional observations from a re-analysis of the deposited data

How the results depend on the processing

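None of the 16 fits of the deposited values or the 11 fits of centred values called a member, and the lowest adjusted p of a member was 0.111, without Flicr WT replicate 2. Over all regions, against 15 higher and 0 lower as deposited, 0 were higher with median centring, quantile normalization, scaling to reads in regions, no trend and robust options, and centring on median ratios (added after seeing the data). There were 25 higher without a filter, and 12 lower with voom scaled to reads in regions. With 1 library left out, the higher calls as deposited numbered 158 and 6440 without Flicr WT replicates 1 and 2 and 0 and 1 without Flicr KO replicates 1 and 2, and the lower calls 0 to 18. After centring they numbered 14 to 673 higher, the most without Flicr WT replicate 2, and 2 to 26 lower, against 0 and 0. These fits set 1 library against 2 and assume that the lone library varies like the others. With the replicate number as a block, 42 were higher as deposited and 5 after centring. Each genotype has 1 library of each replicate number, so the block leaves every fold change and window median unchanged by construction. The deviations of same-numbered libraries correlated at 0.0031 over regions. With 2 replicate numbers this cannot show whether same-numbered samples were paired.

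Of 116 refitted window medians 13 moved by 1 SD between replicates or more. Against 0.04 (Helios), 0.10 (Ikaros) and 0.03 (Aiolos) as deposited, they were −0.13 for Helios with median centring, −0.16 with quantile normalization, −0.19, −0.10 and −0.22 scaled to reads in regions, −0.27, −0.16 and −0.20 with voom on reads in regions, and −0.18, −0.12 and −0.19 with median ratios. These scalings remove a common shift by construction. The block and the fits without trend and robust options leave every fold change as it was, so their medians could not move. Leaving out a library put Helios between −0.15 and 0.13. Its centred median, −0.13, was −0.064 with a pseudocount of 5. The RPM ratio of Eos was −0.0041 (log2) with the window extended by 20000 bases, that of Helios −0.19 to 0.27 and that of Aiolos −0.14 to 0.28 when a library was left out. The cause was not tested.

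Of 412 refitted fold changes of the 28 named regions, 41 changed sign and 0 were called. The filter, trend and block settings leave a deposited fold change as it was, so those refits could not change sign. In the order median centring, quantile, reads in regions, voom on reads in regions and median ratios, 69590449 was at −0.046, −0.18, −0.17, −0.18 and −0.092, 69602118 at −0.12, −0.29, −0.26, −0.34 and −0.17, and 128073665 at −0.17, −0.32, −0.30, −0.30 and −0.21. In the same order without median centring, 128063409 was at −0.10, −0.10, −0.15 and −0.038, 11624423 at −0.10, −0.10, −0.070 and −0.028, and 98331147 at −0.072, −0.088, −0.26 and −0.025. With voom on reads in regions 128079800 was at −0.012 and 98424413 at −0.025. Leaving out a library gave −0.063 to 0.31 (69590449), −0.14 to 0.24 (69602118), −0.076 to 1.19 (69712290), −0.26 to 0.0091 (69730687), −0.25 to 0.21 (69737862), −0.066 to 0.42 (128063409), −0.046 to 0.055 (128073665), −0.28 to 0.66 (98331147), −0.86 to 0.11 (98348868) and −0.32 to 1.04 (98424413). The regions listed here ranged from few reads to many, with 1 to 28 reads in a library at 69712290 and 676 to 1536 at 11624423. The part of depth in the sign changes was not tested.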

Other observations

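The Helios locus was the fullest stretch of the region list at several scales. Among consecutive tiles of 200 kb the fullest in the genome was chr1:69600001-69800000 with 73 regions, followed by a tile with 71. With tiles of 140 kb it was chr1:69580001-69720000 with 67 regions, and with tiles of 120 kb chr1:69600001-69720000 with 60 regions, each inside or overlapping the Helios window. With tiles of 50 kb the fullest tile lay on chromosome 3, at 60350001 to 60400000, with 31 regions. How neighbouring regions were merged is not known from the sources used here, and these counts describe the region list.

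In the Helios window fold changes relative to the library medians were mostly below 0 at every width. This pattern was picked out after the values were seen and was not tested. All 8 tested regions of 2000 bp or more had a centred log2 fold change below 0, with a median of −0.10, against 28.1% of the 2856 tested regions of that width in the genome, whose median was 0.10. In the Ikaros window 4 of 8 wide regions were below 0, with a median of −0.02. Of the 251-bp regions of the Helios window, 12 of 17 tested were below 0 with a median of −0.26, against 53.1% of all tested regions of 251 bp or less. The same held for 6 of 8 in the Ikaros window (median −0.12) and 3 of 4 in the Eos window (median −0.64). It did not hold in the Aiolos window, with 3 of 6 below 0 (median 0.02). Of the Helios regions between these widths, 28 of 45 tested were below 0, with a median of −0.13. Over all regions of such widths 42.9% were below 0, with a median of 0.06.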
